A study of Homo sapiens with 9 samples.

Results

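The IkB family holds the inhibitors that bind NF-kB dimers, and 6 of its genes were followed here: NFKBIA, NFKBIB and NFKBIE, which encode the classical inhibitors IkB-alpha, IkB-beta and IkB-epsilon, and NFKBID, NFKBIZ and BCL3, which encode the nuclear family members IkB-NS, IkB-zeta and BCL3. They were taken by gene name from the 58735 genes of the count table, and all 6 passed the expression filter that left 18195 genes for testing. RNA came from HEK293A, a human embryonic kidney cell line, in a derivative labelled as p65 knockout that all 3 groups share. Vector alone, a p65 WT plasmid or a plasmid for p65 2CS was introduced by transfection, and every group then received TNF (20 ng/mL for 2 h) 24 h afterwards. There are 3 libraries per group, with replicate numbers 1 to 3 (vector), 4 to 6 (p65 WT) and 7 to 9 (p65 2CS). The name 2CS is not spelled out in the labels, and neither the number of knockout clones nor the use of separate cultures is stated, so p-values here measure library-to-library spread that could be technical. None of the 9 libraries is labelled as untreated, so each value is a level after TNF and not a response to it.

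Classical IkB proteins hold NF-kB dimers in the cytoplasm through their ankyrin repeats. TNF activates the IkB kinase, which phosphorylates them and so marks them for ubiquitination and destruction by the proteasome, and the freed NF-kB enters the nucleus. NFKBIA is a textbook NF-kB target, and its resynthesis ends the response, a negative feedback loop. The nuclear members act on chromatin-bound NF-kB, mostly with p50 or p52 homodimers, and can raise or lower transcription depending on the gene.

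Library totals ran from 15989601 to 25068515 counts. RELA, the gene of p65, ranged over 65.9 to 69.0 CPM (counts scaled to a common library size after TMM normalization) for vector, 8037 to 9922 CPM for p65 WT and 24036 to 26771 CPM for p65 2CS, where plasmid and locus transcripts cannot be told apart. Residual RELA reads with vector say nothing about protein, which was not measured. Of 9 markers of the HEK293 line, 8 or 9 reached a mean of 1 CPM in every group. Among markers of differentiated nephron epithelium, AQP2 and UMOD had 0 counts in all 3 groups, although the tissue is labelled as kidney. The summed level of that list was 11.0 to 12.5 CPM (vector), 52.2 to 59.2 CPM (p65 WT) and 14.6 to 15.6 CPM (p65 2CS), and most of the difference was NPHS1 (0.209, 41.7 and 4.29 CPM). The endothelial and fibroblast list summed to 80.3 to 88.4, 120 to 123 and 81.6 to 85.0 CPM. The leukocyte list, from cells in which the nuclear IkB genes are best known, summed to 3.82 to 4.09 CPM, 4.94 to 5.997 CPM and 5.16 to 5.41 CPM, with TYROBP at 0 counts in every group and PTPRC at 0 counts with vector and p65 WT. The part of such cells in the results below was not tested.

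Promoter sequences are shown first, and a link between them and the changes given further on was not tested. RefSeq windows on GRCh38.p14, from 250 bases before to 50 after each annotated start, were at hand for 5 of the 6 members, and NFKBIE had no entry. The windows were searched on both strands for the 10-base NF-kB consensus. It was found in windows of all 5 members, in 7 of their 9 windows, against 11.3% of all 35116 windows in the table, or 17.5% of the 11860 tested genes with a window. A match is a description of these letters, not a measured binding site. The stretches below lie upstream of the start outside annotated exons, run 5′ to 3′ on the gene's strand, and carry the consensus in capitals.
NFKBIA, chr14:35404750-35404999, minus strand: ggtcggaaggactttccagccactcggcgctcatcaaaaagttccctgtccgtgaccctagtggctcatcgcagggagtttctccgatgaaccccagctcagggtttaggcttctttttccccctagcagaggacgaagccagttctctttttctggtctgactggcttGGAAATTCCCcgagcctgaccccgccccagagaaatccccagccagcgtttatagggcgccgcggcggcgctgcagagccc
NFKBIB, chr19:38899863-38899951, plus strand: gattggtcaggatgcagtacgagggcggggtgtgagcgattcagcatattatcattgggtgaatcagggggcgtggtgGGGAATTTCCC
NFKBID, chr19:35899744-35899993, minus strand: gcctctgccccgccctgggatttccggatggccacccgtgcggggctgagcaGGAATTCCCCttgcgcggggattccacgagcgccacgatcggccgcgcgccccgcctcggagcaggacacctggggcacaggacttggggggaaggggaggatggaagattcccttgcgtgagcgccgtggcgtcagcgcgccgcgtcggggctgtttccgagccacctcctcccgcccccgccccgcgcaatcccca
NFKBIZ, chr3:101827740-101827989, plus strand: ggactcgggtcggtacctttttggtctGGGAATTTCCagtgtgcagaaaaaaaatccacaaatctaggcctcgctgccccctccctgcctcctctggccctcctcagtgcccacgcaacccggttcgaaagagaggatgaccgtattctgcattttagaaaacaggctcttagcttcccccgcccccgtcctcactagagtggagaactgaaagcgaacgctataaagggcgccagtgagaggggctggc

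The match of NFKBIA spans -81 to -72 from its start and that of the upstream NFKBIZ window -223 to -214. The other NFKBIZ window has a match at -239 to -230, but all of its upstream bases lie in annotated exons. NFKBIB, whose downstream window is shown, holds overlapping matches at -28 to -19 and -27 to -18, and another after the start at 39 to 48. NFKBID holds the match shown at -198 to -189 from the start of its window 3, and another in window 2 at -92 to -83, within annotated exon bases. BCL3 has its match just inside the transcript, at 3 to 12 after the start (GGGAAGTCCC, chr19:44748710-44748719). The counts are per gene, so that transcripts of the alternative starts of NFKBIB, NFKBID and NFKBIZ cannot be separated.

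With p65 WT in place of vector, all 6 IkB genes rose, by 1.34-fold to 8.72-fold, and none of their groups overlapped. With p65 2CS 5 of 6 were higher than with vector, to a lesser extent for 4 of them. Set against p65 WT, 5 of 6 were lower with p65 2CS, although its RELA transcript was higher. The exception was NFKBIB, which stood at nearly the same level with both forms. Over all 18195 tested genes edgeR called 28.8% changed with p65 WT against vector (16.4% higher), 23.4% with p65 2CS against vector (12.1% higher) and 31.2% between the 2 forms (17.9% lower with p65 2CS). Without regard to the test, groups of libraries did not overlap in CPM for 20.3% of tested genes higher with p65 WT than with vector, where all 6 members did so. The shares were 18.5% higher with p65 2CS than with vector and 21.8% lower with p65 2CS than with p65 WT, for 5 of 6 members each. Genes higher and lower numbered 2976 and 2268 for p65 WT against vector (2561 and 3642 under library-total scaling), 2193 and 2070 for p65 2CS against vector (1955 and 2382), and 2431 and 3254 between the forms (3098 and 2820). The members' median log2 folds were 1.72, 0.69 and -0.90 in these comparisons, against -0.02, -0.00 and 0.00 over all tested genes. Each library averages over all of its cells, so that fewer responding cells and less transcript per cell cannot be told apart.

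**Figure D1:**
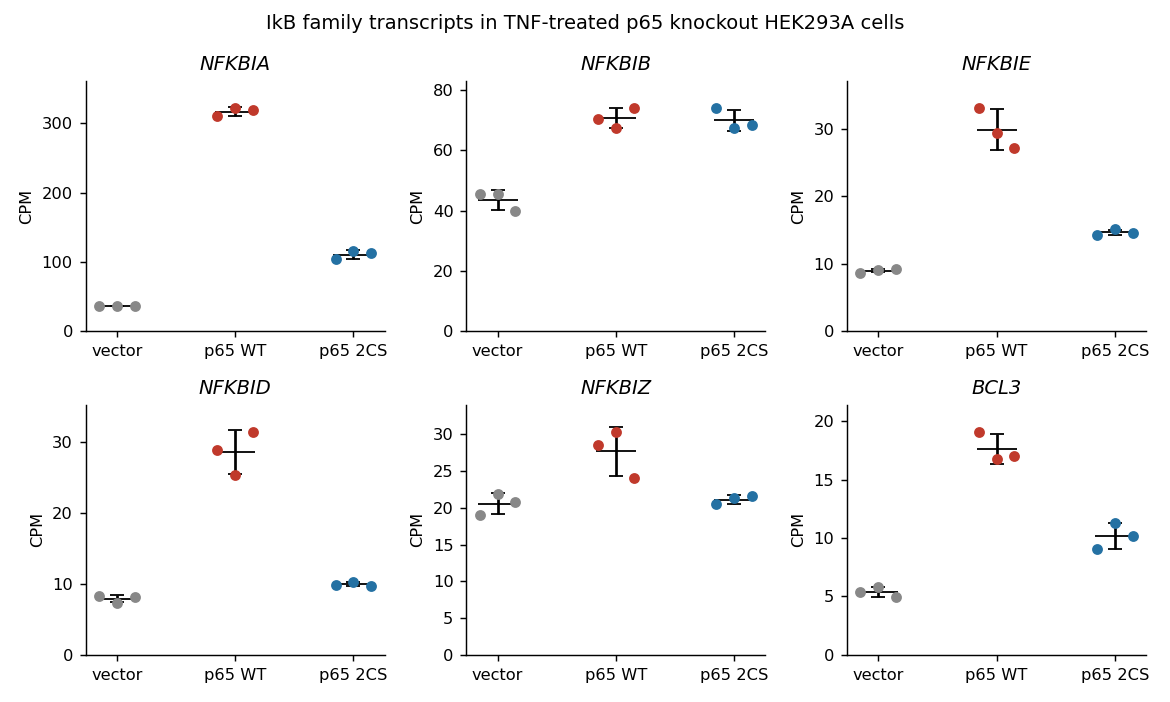
CPM of each IkB gene in the 9 libraries, on linear axes from 0; points are libraries, bars are the group mean and SD (n = 3). NFKBIA, NFKBIE, NFKBID and BCL3 form 3 separate levels with p65 WT highest, where NFKBID with p65 2CS lies just above vector. NFKBIB is at 67.5 to 74.1 CPM in all 6 p65 libraries, and NFKBIZ with p65 2CS lies within its vector range.

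NFKBIA (ENSG00000100906, chromosome 14, 35401511 to 35404749, minus strand, GRCh38) showed the widest span of the family. It measured 36.3, 36.9 and 35.9 CPM under vector, 310.2, 322 and 319 CPM under p65 WT, and 104, 116 and 112 CPM under p65 2CS. The 3 groups stood apart from each other in every library, with a coefficient of variation within groups of 1.28% to 5.43%. NFKBIA rose 8.72-fold with p65 WT (95% interval 8.24 to 9.23, edgeR adjusted p = 3.4e-41) and 3.05-fold with p65 2CS (2.87 to 3.24, edgeR adjusted p = 6.1e-29). It was 2.86-fold lower with p65 2CS than with p65 WT, a log2 fold of -1.52 ± 0.03 (SE, edgeR adjusted p = 5.6e-32). By size of log2 fold against vector NFKBIA ranked 458 among tested genes with p65 WT and 314 with p65 2CS.

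NFKBIB (ENSG00000104825, chromosome 19, 38899700 to 38908893, plus strand) encodes IkB-beta, which is degraded more slowly than IkB-alpha in many cells. It was at 45.7, 45.4 and 39.9 CPM (vector), at 70.5, 67.5 and 74.1 CPM (p65 WT) and at 74.0, 67.6 and 68.5 CPM (p65 2CS). All 6 p65 libraries lay above all vector libraries, while the libraries of the 2 forms were interleaved. NFKBIB rose 1.62-fold with p65 WT (95% interval 1.499 to 1.748, edgeR adjusted p = 7.6e-14) and 1.60-fold with p65 2CS (1.48 to 1.72, edgeR adjusted p = 4.1e-13). Between the forms the ratio of p65 2CS to p65 WT was 0.988, with a 95% interval of 0.919 to 1.06 (edgeR adjusted p = 0.84). A difference within that interval in either direction cannot be told from none.

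NFKBIE (ENSG00000146232, chromosome 6, 44258166 to 44265788, minus strand) followed NFKBIA at a lower level. It measured 8.70, 9.01 and 9.23 CPM (vector), 33.1, 29.4 and 27.1 CPM (p65 WT), and 14.3, 15.1 and 14.6 CPM (p65 2CS). The 3 groups did not overlap. The rise was 3.33-fold with p65 WT (95% interval 2.94 to 3.77) and 1.64-fold with p65 2CS (1.43 to 1.87), with edgeR adjusted p of 7.6e-20 and 2.0e-07. With p65 2CS it was 50.8% lower than with p65 WT (log2 fold -1.02 ± 0.08 SE, edgeR adjusted p = 1.8e-13).

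Among the nuclear members, NFKBID (ENSG00000167604, chromosome 19, 35887653 to 35902303, minus strand), whose product IkB-NS is known from lymphocytes and macrophages, separated the 2 forms as widely as NFKBIA did. Its levels were 8.27, 7.34 and 8.18 CPM (vector), 28.96, 25.3 and 31.5 CPM (p65 WT), and 9.83, 10.3 and 9.75 CPM (p65 2CS). The p65 2CS libraries stayed just above the vector libraries and far below those of p65 WT. NFKBID rose 3.61-fold with p65 WT (95% interval 3.16 to 4.13, edgeR adjusted p = 9.8e-20) and 1.26-fold with p65 2CS (1.09 to 1.46, edgeR adjusted p = 0.018). This last call was lost without vector replicate 2 (edgeR adjusted p = 0.11) and without p65 2CS replicate 8 (edgeR adjusted p = 0.081). Between the forms its log2 fold was -1.52 ± 0.09 (SE), a level 2.87-fold lower with p65 2CS (edgeR adjusted p = 2.7e-17).

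BCL3 (ENSG00000069399, chromosome 19, 44747705 to 44760044, plus strand), a proto-oncogene product that binds p50 and p52 homodimers, was the least abundant member with vector. It measured 5.39, 5.82 and 4.92 CPM (vector), 19.1, 16.8 and 17.0 CPM (p65 WT), and 9.08, 11.3 and 10.2 CPM (p65 2CS). The groups formed 3 separate levels. BCL3 rose 3.27-fold with p65 WT (95% interval 2.78 to 3.85, edgeR adjusted p = 8.3e-16) and 1.90-fold with p65 2CS (1.60 to 2.25, edgeR adjusted p = 1.4e-07), and was 41.9% lower with p65 2CS than with p65 WT (edgeR adjusted p = 1.1e-07).

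NFKBIZ (ENSG00000144802, chromosome 3, 101827991 to 101861022, plus strand) encodes IkB-zeta, a coactivator of secondary response genes that is strongly induced by IL-1 and Toll-like receptor ligands. It showed the smallest differences from vector in the family. Levels were 19.1, 21.9 and 20.7 CPM (vector), 28.6, 30.3 and 24.0 CPM (p65 WT), and 20.5, 21.3 and 21.6 CPM (p65 2CS). The lowest p65 WT library, replicate 6, lay little above the highest vector library. NFKBIZ rose 1.34-fold with p65 WT (95% interval 1.199 to 1.503, edgeR adjusted p = 4.9e-05). With p65 2CS it did not pass the threshold against vector, with a ratio of 1.03 and an interval of 0.917 to 1.15 (edgeR adjusted p = 0.79). The difference between the forms was itself called, at 23.5% lower with p65 2CS (edgeR adjusted p = 0.00017).

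**Figure D2:**
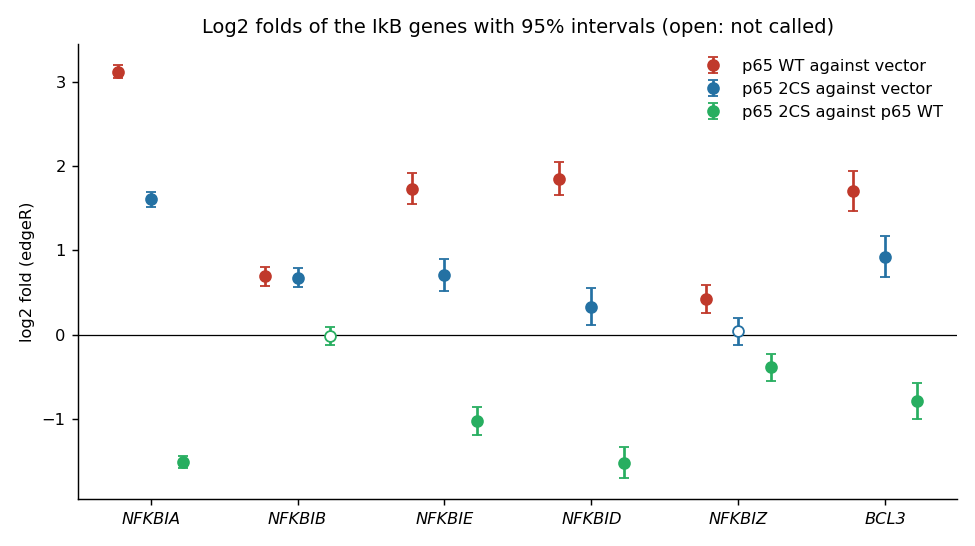
Log2 folds of the 6 genes in the 3 comparisons from the edgeR fit, with 95% intervals; filled points passed an adjusted p of 0.05 and open points did not. The open points are NFKBIB between the 2 forms (-0.02) and NFKBIZ with p65 2CS against vector (0.04); the comparisons with vector share the vector libraries.

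To compare genes with each other, CPM were divided by the deposited gene length. With vector, NFKBIB (18.8 ± 1.42 CPM per kb, SD, n = 3) and NFKBIA (15.3 ± 0.197) led, followed by NFKBIZ (3.48 ± 0.241) and NFKBIE (3.48 ± 0.103), which did not differ beyond their spread, then NFKBID (2.48 ± 0.160) and BCL3 (1.66 ± 0.140). With p65 WT the order by CPM per kb was NFKBIA (134 ± 2.64), NFKBIB (30.4 ± 1.43), NFKBIE (11.6 ± 1.17), NFKBID (8.95 ± 0.972), BCL3 (5.44 ± 0.397) and NFKBIZ (4.68 ± 0.556). NFKBIZ was thus last in that order. With p65 2CS NFKBIA (46.6 ± 2.53) again led NFKBIB (30.1 ± 1.501) and NFKBIE (5.68 ± 0.155), while NFKBIZ (3.58 ± 0.0947), BCL3 (3.14 ± 0.341) and NFKBID (3.11 ± 0.0917) followed. BCL3 and NFKBID did not differ beyond their spread there.

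Summed over the family, the transcript level was 45.2 ± 1.54 CPM per kb (vector), 195 ± 1.11 (p65 WT) and 92.2 ± 1.71 (p65 2CS) (SD, n = 3). Shares within the family do not depend on how libraries are scaled. The NFKBIA share of family reads per kb was 33.9% ± 0.809 (vector), 68.6% ± 1.18 (p65 WT) and 50.5% ± 1.86 (p65 2CS) (SD, n = 3). NFKBIB held 41.5% ± 1.82 (vector), 15.6% ± 0.679 (p65 WT) and 32.7% ± 2.21 (p65 2CS). The leading inhibitor transcript was thus NFKBIB in every vector library and NFKBIA in every p65 library. The 3 nuclear members together held 16.9% ± 0.569, 9.79% ± 0.420 and 10.7% ± 0.325 in the same order of groups. By counts, without division by gene length, their shares were 27.6% ± 0.986, 15.03% ± 0.517 and 17.4% ± 0.394 (SD, n = 3).

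**Figure D3:**
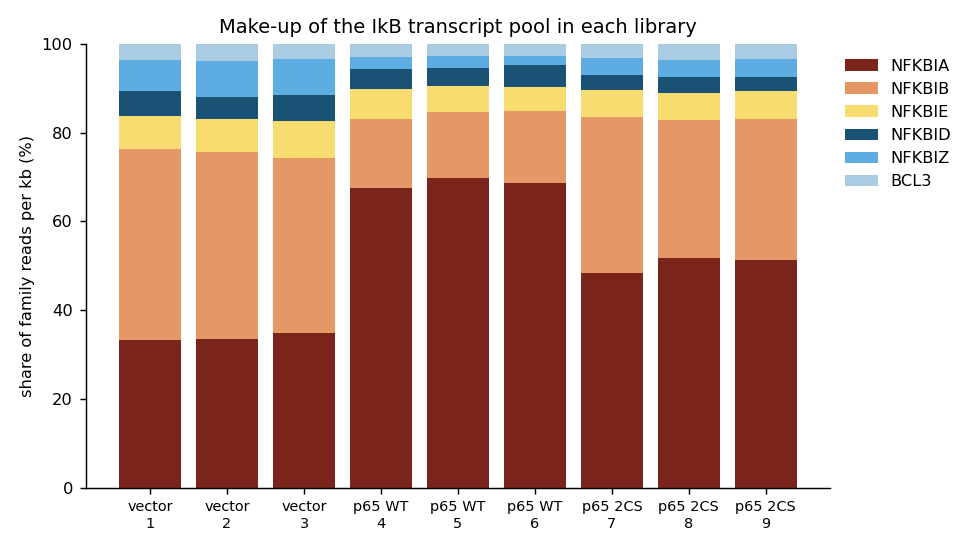
Share of each gene in the summed IkB reads per kb, with a bar per library marked by its replicate number. NFKBIA takes 33.4% to 34.8% of the bar (vector), 67.5% to 69.8% (p65 WT) and 48.4% to 51.9% (p65 2CS), and the NFKBIB part is smallest with p65 WT.

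The ratio of counts within a library put the 2 main inhibitors side by side. NFKBIB, the denominator throughout this paragraph, itself rose 1.62-fold with p65 WT and 1.60-fold with p65 2CS. Each ratio is therefore lowered relative to vector, and a lower ratio need not mean less of the numerator transcript. NFKBIA over NFKBIB was 0.794, 0.811 and 0.902 (vector), 4.40, 4.78 and 4.30 (p65 WT), and 1.40, 1.71 and 1.64 (p65 2CS). The groups did not overlap, and the ratio was 2.84-fold lower with p65 2CS than with p65 WT. NFKBIE over NFKBIB was 0.207 ± 0.0219 (vector), 0.424 ± 0.0527 (p65 WT) and 0.210 ± 0.0153 (p65 2CS) (SD, n = 3), so that p65 2CS libraries overlapped vector and not p65 WT. For NFKBID over NFKBIB the order was p65 WT (0.404 ± 0.0256), vector (0.183 ± 0.0219) and p65 2CS (0.143 ± 0.00975, SD, n = 3). By CPM, NFKBID was 1.26-fold higher with p65 2CS than with vector, and NFKBIZ, given next, 1.34-fold higher with p65 WT. NFKBIZ over NFKBIB was 0.473 ± 0.0521 (vector), 0.393 ± 0.0640 (p65 WT) and 0.302 ± 0.0221 (p65 2CS) (SD, n = 3), and the libraries of p65 WT overlapped those of vector (exact permutation p = 0.2, two-sided). BCL3 over NFKBIB was 0.123 ± 0.00512 (vector), 0.250 ± 0.0208 (p65 WT) and 0.146 ± 0.0223 (p65 2CS) (SD, n = 3), and p65 2CS overlapped vector (exact permutation p = 0.3, two-sided). For each of these 5 ratios the exact permutation p between the forms was 0.1 (two-sided), the smallest that 3 against 3 libraries allow, or 0.12 adjusted over the 18 ratio comparisons made.

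NFKBIA transcripts were also set against those of RELA, the gene whose product they restrain. NFKBIA over RELA was 0.532, 0.534 and 0.545 in counts (vector), 0.0343, 0.0401 and 0.0321 (p65 WT), and 0.00404, 0.00432 and 0.00467 (p65 2CS). The ratio was 8.16-fold lower with p65 2CS than with p65 WT (exact permutation p = 0.1, two-sided, n = 3, the smallest possible). It is a ratio of transcripts, with plasmid and locus RELA reads pooled.

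Genes next to or overlapping the members were read for their own levels, since the strand setting of the counting is not given in the sources used here. SIRT2, a deacetylase gene on the opposite strand, shares 40 exon bases with NFKBIB and measured 77.5 ± 1.72, 79.5 ± 3.88 and 78.2 ± 0.914 CPM with vector, p65 WT and p65 2CS (SD, n = 3). Its log2 folds against vector were 0.04 ± 0.04 and 0.01 ± 0.04 (SE), and neither passed the threshold (edgeR adjusted p = 0.58 and 0.87). SLC35B2, a nucleotide sulfate transporter gene that lies 275 bases from NFKBIE on the same strand, was at 97.3, 95.1 and 89.3 CPM, a fall of 0.12 on the log2 scale with p65 2CS against vector (edgeR adjusted p = 0.017). NXPE3, 598 bases before NFKBIZ, was at 34.0, 33.2 and 30.04 CPM, with a fall of 0.18 (edgeR adjusted p = 0.041). These 2 calls were lost under 4 and 7 of 14 alternatives, DESeq2 among them. AD000864.1, a gene model of class TEC that shares 111 exon bases with NFKBID on the same strand, had 18 to 24 counts summed over a group. CCER2, 86 bases from NFKBIB, had 63 to 74 counts, and HCST, 176 bases from NFKBID, had 0 to 6. MIR8085, which lies within an exon of BCL3, had 0 counts in all groups. The nearest gene to NFKBIA lies 12441 bases away. DNAJC8P1, a pseudogene on the other side of NFKBIA, was at 0.380, 0.607 and 0.519 CPM, with log2 folds against vector of 0.65 ± 0.51 and 0.44 ± 0.50 (SE, edgeR adjusted p = 0.37 and 0.59). RINL, beyond SIRT2, was at 3.06, 3.06 and 3.72 CPM. TMEM151B, 4677 bases from NFKBIE, had 6, 23 and 8 counts summed over vector, p65 WT and p65 2CS. AL133163.1, the pseudogene nearest to NFKBIA, had 0, 8 and 1, and RN7SL402P, 5499 bases from NFKBID, had 1, 7 and 6. LINC02085 near NFKBIZ and RF00285 and RF00156 near BCL3 had 0 counts. Of these neighbours SIRT2, SLC35B2, NXPE3, CCER2, DNAJC8P1 and RINL were tested, and no rise was called in either comparison with vector. The others did not pass the expression filter, so a rise could not be called for them.

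For each member, the 3 genes with the most similar profile were found by the root mean square difference in log2 CPM over the 9 libraries, taken from the vector mean, among 15786 genes at 1 CPM or more. This is a description, and it ranks genes by values that share the same libraries. NFKBIA was nearest to MOB3C (0.238), KCNF1 (0.256) and TCHH (0.260), with larger distances than any other member had. These 3 genes were low with vector, at 2.03, 0.577 and 0.914 CPM, so their likeness rests partly on small counts. Their edgeR log2 folds with p65 WT against vector were 3.23, 3.60 and 3.43, and that of NFKBIA was 3.12. NFKBIB was nearest to RIPK2 (0.0964), a kinase downstream of NOD receptors, BIRC2 (0.0970), which encodes the ubiquitin ligase cIAP1 of the TNF receptor complex, and GORAB (0.102). RIPK2 measured 19.3 ± 1.36, 28.8 ± 1.66 and 30.2 ± 0.279 CPM with vector, p65 WT and p65 2CS (SD, n = 3), and BIRC2 37.3 ± 1.75, 63.5 ± 3.18 and 56.4 ± 1.64 CPM. NFKBIE was nearest to TNFSF9 (0.112), the ligand of the costimulatory receptor 4-1BB, TAPBP (0.114), which loads peptide on MHC class I, and SDC4 (0.118), a cell surface proteoglycan. BCL3 was nearest to ARHGAP27 (0.106), the peptide transporter gene TAP1 (0.131) and the RNA sensor gene IFIH1 (0.140). NFKBID was nearest to DOCK9 (0.105), VWF (0.110), which is also in the endothelial marker list, and P2RX2 (0.126). NFKBIZ was nearest to SPPL2A (0.0634), NPHP4 (0.0722) and ST3GAL3 (0.0756).

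Other genes of the pathway showed where the IkB genes stood among their regulators. All 4 Rel subunits other than p65 rose with each form, and 3 of 4 were lower with p65 2CS than with p65 WT. Over all tested genes 16.4% were called higher with p65 WT and 12.1% with p65 2CS against vector. Between the forms 17.9% were called lower with p65 2CS. NFKB2, which encodes the precursor p100, itself an IkB-like inhibitor until it is processed to p52, was at 49.4 ± 0.723, 365 ± 21.7 and 113 ± 3.25 CPM with vector, p65 WT and p65 2CS (SD, n = 3). NFKB1, of the precursor p105, was at 56.3 ± 1.47, 124 ± 4.67 and 105 ± 2.34 CPM. RELB was at 16.8, 112 and 72.6 CPM and REL at 17.3, 24.9 and 26.2 CPM, where REL between the forms gave a log2 fold of 0.08 ± 0.07 (SE, edgeR adjusted p = 0.47).

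The 16 genes of the IkB kinase complex and the machinery that ubiquitinates phosphorylated IkB gave 2 rises and 3 falls with p65 WT against vector, a share near the 28.8% called over all tested genes. Under library-total scaling these were 2 and 7, and without vector replicate 2 they were 2 and 1. IKBKE, an inducible kinase related to the IKK subunits, rose from 3.99 ± 0.335 to 28.5 ± 3.16 CPM, and IKBKG, the regulatory subunit NEMO, from 14.5 ± 1.35 to 20.2 ± 5.12 CPM (SD, n = 3). IKBKG has a near-identical pseudogene, so its reads are uncertain, and its call was lost with DESeq2 (adjusted p = 0.083) and without p65 WT replicate 6 (log2 fold 0.27, edgeR adjusted p = 0.088). CHUK, the kinase subunit IKK-alpha, and the ubiquitin-conjugating enzyme genes UBE2D2 and UBE2D3 fell by 0.14, 0.15 and 0.08 on the log2 scale, and the calls of CHUK and UBE2D3 were each lost under 6 of 14 alternatives, DESeq2 among them. IKBKB, the kinase subunit IKK-beta that acts on the classical inhibitors, was at 54.9, 57.6 and 57.9 CPM with vector, p65 WT and p65 2CS and was not called in any comparison.

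With p65 2CS against vector the same list gave 1 rise, IKBKE (to 7.98 ± 1.60 CPM, SD, n = 3), and 4 falls, NEDD8, RBX1, SKP1 and UBE2D3, by 0.36, 0.19, 0.15 and 0.08 on the log2 scale, against 23.4% called over all tested genes. The calls of RBX1 and UBE2D3 were lost under 3 and 6 of 14 alternatives. Without p65 2CS replicate 9 the 5 calls became 3. RBX1 and SKP1 are subunits of the ubiquitin ligase that recognises phosphorylated IkB, and NEDD8 is the modifier that activates it. Between the forms 3 genes of the list were higher and 4 lower with p65 2CS, or 4 and 3 under library-total scaling, against 31.2% called over all tested genes. Of these, CUL1, IKBKG, RBX1 and SKP1 lost their calls under 2, 3, 2 and 5 of 14 alternatives. IKBKE was 3.60-fold lower, whereas BTRC, the ligase subunit that binds the IkB degron, was 1.22-fold higher.

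Among 13 tested genes of 14 that act on IkB proteins or end the response, 4 rose with p65 WT and 0 fell, or 4 and 2 under library-total scaling, a share near the 28.8% called over all tested genes. These were TNFAIP3 and CYLD, both deubiquitinases, TNIP1, a partner of TNFAIP3, and the linear-chain deubiquitinase OTULIN, with log2 folds of 4.95 ± 0.06, 1.28 ± 0.05, 1.20 ± 0.04 and 0.16 ± 0.04 (SE). With p65 2CS against vector 6 rose and 0 fell, against 23.4% called over all tested genes. TNFAIP3, TNIP1, NFKBIL1 and CYLD had log2 folds of 2.80 ± 0.07, 0.44 ± 0.04, 0.39 ± 0.08 and 0.33 ± 0.05 (SE), and USP15 and USP11 of 0.20 and 0.16. Between the forms TNFAIP3, CYLD, TNIP1 and OTULIN were lower with p65 2CS and NFKBIL1, USP15, OTUD7B and USP11 higher, or 3 lower and 5 higher under library-total scaling. Over all tested genes 31.2% were called. The calls of OTULIN and USP11 between the forms were lost under 4 and 9 of 14 alternatives. NFKBIL1, a distant IkB-like gene, stood at 21.0 ± 1.77, 21.7 ± 2.40 and 27.6 ± 2.14 CPM (SD, n = 3) with vector, p65 WT and p65 2CS, highest with p65 2CS. NKIRAS1 and NKIRAS2, whose kappaB-Ras products bind IkB-beta, were called in no comparison.

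The 9 mRNA decay factors include the nuclease Regnase-1 (ZC3H12A) and Roquin (RC3H1 and RC3H2), known to act on IkB-zeta and related mRNAs. With p65 WT 5 rose and 1 fell, or 5 and 3 under library-total scaling, against 28.8% called over all tested genes. ZFP36 rose from 7.01 ± 0.607 to 35.9 ± 4.82 CPM and ZC3H12A from 9.61 ± 2.31 to 16.1 ± 1.71 CPM (SD, n = 3). The Regnase family gene ZC3H12C rose from 26.9 ± 2.31 to 38.5 ± 2.06 CPM (SD, n = 3), while ARID5A, which stabilises mRNAs against Regnase-1, fell from 39.5 ± 0.778 to 29.5 ± 1.49 CPM. With p65 2CS against vector 4 rose and 1 fell, where 23.4% of all tested genes were called, with ZFP36 at 14.0 ± 0.519, ZC3H12A at 12.9 ± 0.802, ZC3H12C at 34.7 ± 1.34, ZFP36L2 at 193 ± 8.36 and ARID5A at 31.3 ± 1.46 CPM (SD, n = 3). Between the forms 0 were higher and 3 lower with p65 2CS (1 and 3 under library-total scaling), namely ZFP36, ZC3H12A and ZFP36L1, a share near the 31.2% of all tested genes. The ZC3H12A call with p65 2CS was lost under 2 of 14 alternatives against vector (without vector replicate 1 or 2) and under 3 of 14 against p65 WT (with DESeq2, and without p65 WT replicate 6 or p65 2CS replicate 8). RC3H1 and RC3H2 were called in no comparison.

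**Figure D4:**
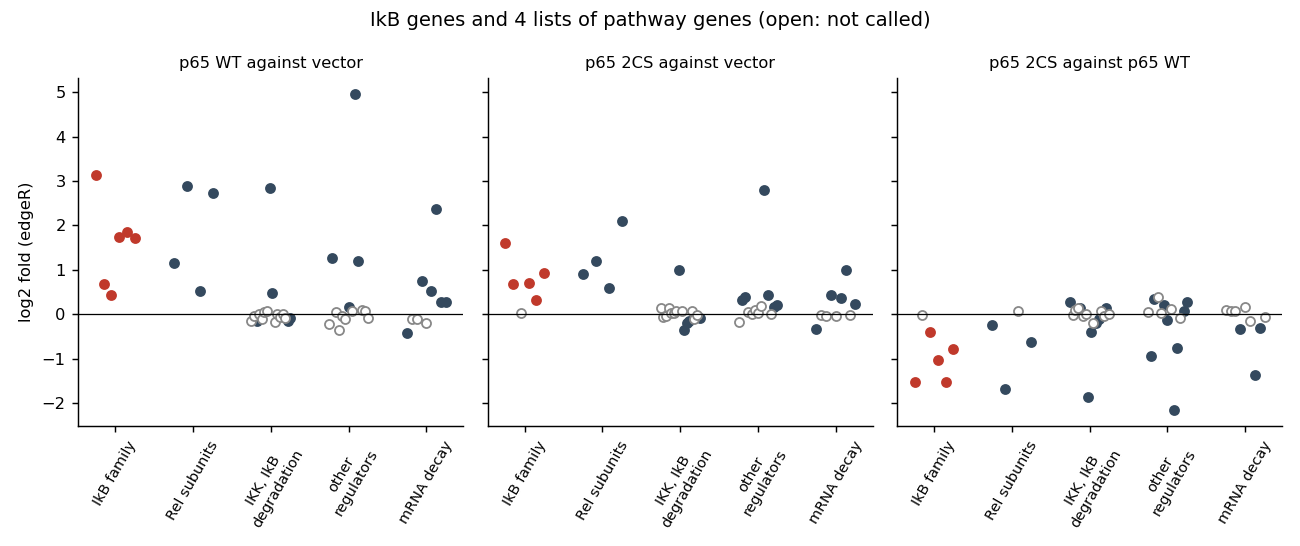
Log2 folds of the 6 IkB genes (red) and of the tested genes of 4 pathway lists (dark) in the 3 comparisons, 1 point per gene; open points did not pass an adjusted p of 0.05. Most genes of the IkB kinase and degradation list lie near 0, apart from IKBKE (2.84 with p65 WT against vector).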

How the data were processed

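The authors deposited one table of unnormalized whole-number counts per gene, with symbol, position, strand, length and biotype. The submitters' processing notes name the aligner HISAT2 2.0.5. The counting tool, strand setting and build stand as not given in the sources used here, and the labels' protocols describe poly-T bead selection and both a directional and a non-directional library. All 58735 identifiers carry the start, end and strand of GENCODE release 29, hence GRCh38.

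The tests used edgeR 4.0.16 in R 4.3.3. filterByExpr kept 18195 genes and dropped 40540, TMM scaled the libraries, and the quasi-likelihood F test was fitted to the 9 libraries together, with Benjamini-Hochberg adjustment over all tested genes and a threshold of 0.05. Standard errors and 95% intervals follow from that test. Its calls for p65 WT against vector were checked on simulated counts with the same spread for every gene. There 176 of 200 changed genes were recovered and 5 unchanged genes were called. The intervals were not checked in this way. Library pairs within groups differed beyond sampling noise (chi-square over its degrees of freedom between 1.91 and 2.64). The text names the 6 members, RELA, overlapping and nearest genes, the 3 genes of closest profile (log2 CPM with prior count 2, mean CPM of at least 1), and in each pathway list the called genes of largest fold. IKBKB, NKIRAS1, NKIRAS2, RC3H1, RC3H2 and smaller called changes were added after their values were seen. Members and lists were chosen with earlier results of these data known. Alternatives were 2 other scalings, DESeq2 1.42.0, no filter, fits of 2 groups, each library left out, and a looser consensus.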

Additional observations from a re-analysis of the deposited data

How the results depend on the processing

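Under 14 alternatives (2 other scalings, DESeq2, no filter, only the 2 groups compared, and each of 9 libraries left out), 245 of 252 member values kept their direction and side of the threshold. The other 7 were NFKBID with p65 2CS against vector, whose log2 fold was 0.28 without vector replicate 2 and 0.31 without p65 2CS replicate 8, and values near 0 that changed sign without being called. These were NFKBIZ with p65 2CS against vector (-0.0136 without vector replicate 1, range -0.0136 to 0.0870 with each library left out) and NFKBIB between the forms (0.0110 with library totals, 0.0182 without p65 WT replicate 6, 0.0103 without p65 2CS replicate 8 and 0.000175 without p65 2CS replicate 9, range -0.0550 to 0.0182). The cause was not tested. Leaving out a library of the group not compared alters a comparison only through the shared spread, the filter and the scaling. Values under those alternatives could therefore differ little. Members called numbered 6 with p65 WT, 4 or 5 with p65 2CS and 5 between the forms with each library left out in turn. Genes called lower over the whole table with p65 WT against vector were 2268, or 3642 with library totals. The 5 calls of the IkB kinase and degradation list with p65 WT were 9 with library totals, 3 without a filter, 3 without vector replicate 2 and 2 with DESeq2. The looser consensus added 1 match, in NFKBID. No paired analysis was possible because the replicate numbers 1 to 3, 4 to 6 and 7 to 9 are not shared between groups.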
